A study of Mus musculus with 35 samples.

Results

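The genes described here are 8 regulators of protein breakdown outside the cell: the plasminogen activators Plau and Plat, the activator receptor Plaur, the serpins Serpine2 and Serpinb2, and the tissue inhibitors of metalloproteinases Timp1, Timp2 and Timp3. They were chosen by symbol, and where a symbol had several transcript rows the row with the largest total was used. All 8 were found among the 22830 gene symbols of both count tables, and all 8 passed the filter on low counts in every comparison. Bulk RNA-seq was performed on 35 punch biopsies from the middle of healing skin wounds or scars of mice, in 8 groups.

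All mice were young adults of both sexes on a B6 background, were homozygous for floxed Col5a1 (Col5a1 fl/fl), received tamoxifen and had a full-thickness piece of dorsal skin excised. In Col5a1CKO mice the Col1a2CreERT transgene, a tamoxifen-inducible Cre driven by a type I collagen enhancer that is active in fibroblasts, deletes Col5a1, which encodes a chain of type V collagen. Cre-negative Col5a1 fl/fl littermates are called WT. Only cells that express the driver lose the gene, and other cells of the wound keep it. The first table held 23 libraries: 7 WT and 7 Col5a1CKO wounds at day 14, 3 Col5a1CKO wounds at day 14 injected with WT skin fibroblasts, and 3 wounds of each genotype at day 19. The study's methods give PBS alone to mice of that experiment that received no fibroblasts, while the labels of the other day 14 wounds of this table name wounding only. Its figure legends name day 14 groups of 7 WT and 7 Col5a1CKO mice as given vehicle. The other day 14 wounds of this table are called wounds without fibroblasts here. The second table held 12 libraries at day 14: 4 WT and 4 Col5a1CKO mice given PBS vehicle, and 4 Col5a1CKO mice given cilengitide, an inhibitor of αvβ3 integrin. Below, vehicle always means these groups of the second table. For the 3 Col5a1CKO wounds at day 19 a treatment tag names fibroblasts, whereas the sample titles give fibroblasts only at day 14, and the titles were followed here. Libraries are named below by their letter or number within a group.

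Plasminogen activators cut plasminogen to plasmin, a protease that dissolves fibrin and can activate matrix metalloproteinases. Plau encodes the urokinase-type activator, which acts at the cell surface when bound to the receptor encoded by Plaur, and Plat encodes the tissue-type activator. Serpine2 (protease nexin 1) and Serpinb2 (plasminogen activator inhibitor 2) block serine proteases including these activators, while the TIMPs block matrix metalloproteinases. In skin repair, keratinocytes and inflammatory cells are known to use this system to move through the fibrin clot.

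Library totals over the rows used were 15043531 to 35700337 counts in the first table, while those of the second were 51211600 to 68266760. There 64% of the counts between 1 and 10 were even, against 45.1% in the first, and how that table was counted is not given in the sources used here. Reads that were counted more than once would leave such an excess, which was not tested, so its totals may be larger than the number of independent reads. The first table fell into 2 sets of libraries by the level of GC-rich relative to GC-poor genes, with a widest gap between neighbouring libraries of 1.54 on the log2 scale. The lower set held WT a to d and Col5a1CKO a to e of day 14, and the upper set held the other 14 libraries, so that every fibroblast-injected and day 19 library was in the upper set. Within the upper set at day 14, sex read from Xist and Y-linked RNA was male in all 3 WT and female in both Col5a1CKO and all 3 fibroblast-injected wounds, so sex and genotype cannot be told apart there. At day 19 it was male in 1 of 3 WT and female in the other WT and all 3 Col5a1CKO wounds. The study's figure legends differ from these readings. They give 1 male and 2 females for the fibroblast-injected group and for Col5a1CKO wounds at day 19. Their sex counts for day 14 groups of 7 WT and 7 Col5a1CKO mice also differ from the RNA. The cause of this mismatch was not tested. In the second table WT vehicle 1 and 3 read as female and 2 and 4 as male. Col5a1CKO vehicle 1, 3 and 4 read as male, and number 2 had neither Xist nor Y-linked RNA at 10 CPM or more. With cilengitide, numbers 2 and 3 read as female and 1 and 4 as male. No Col5a1CKO vehicle wound thus read as female, and the part of sex in the comparisons of that table was not tested. Col5a1, the deleted gene, had a mean of 396 ± 170.3 CPM (counts relative to the TMM-scaled library total, from edgeR, mean ± SD, n = 7) in Col5a1CKO and 1063 ± 862 CPM (n = 7) in WT wounds at day 14, and 686 ± 450.5 against 1532 ± 1238 CPM (n = 4 each) with vehicle. The log2 fold changes were −1.43 ± 0.49 at day 14 and −1.17 ± 0.76 with vehicle (edgeR unadjusted p = 0.0108 and 0.164). Neither difference was called (edgeR adjusted p = 0.0756 and 0.232), and the groups overlapped in both. The study itself reports significantly lower Col5a1 in Col5a1CKO than in WT skin, by PCR and by RNA-seq, each with a Mann-Whitney test. In whole biopsies, fewer cells of a type and less RNA per cell cannot be told apart.

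In the mouse build of the authors' alignment (mm9, GENCODE gene limits) Plau lies at chr14:21655884-21662610, Plaur at chr7:25247519-25260892, Plat at chr8:23868216-23893319, Serpine2 at chr1:79790772-79855271, Serpinb2 at chr1:109408000-109432055, Timp1 at chrX:20447292-20451861, Timp2 at chr11:118162383-118217054 and Timp3 at chr10:85763117-85812251. Counts cover exons of RefSeq transcripts of these genes.

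The promoters of Plaur, Serpine2 and Timp1 are shown because these members were called higher in Col5a1CKO wounds at day 14 in both tables, and that of Serpinb2 because its level spread most widely. Each is the 250 bases before a RefSeq transcription start (GRCm38.p6), read 5′ to 3′ on the strand of the gene. Capitals mark the letters TGANTCA (bound by AP-1), AGGAAG (PEA3, bound by ETS factors) or the TATA box as TATAAA, searched on both strands. The Plaur window lies at chr7:24462233-24462482 on the plus strand, Serpine2 at chr1:79858666-79858915 on the minus strand, Timp1 at chrX:20869916-20870165 on the plus strand and Serpinb2, which has 2 entries, at chr1:107511173-107511422 on the plus strand.
Plaur: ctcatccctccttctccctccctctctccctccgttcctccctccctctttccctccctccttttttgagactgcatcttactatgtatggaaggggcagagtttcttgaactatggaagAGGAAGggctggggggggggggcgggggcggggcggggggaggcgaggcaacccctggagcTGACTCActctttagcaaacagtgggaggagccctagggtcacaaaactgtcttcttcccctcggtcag
Serpine2: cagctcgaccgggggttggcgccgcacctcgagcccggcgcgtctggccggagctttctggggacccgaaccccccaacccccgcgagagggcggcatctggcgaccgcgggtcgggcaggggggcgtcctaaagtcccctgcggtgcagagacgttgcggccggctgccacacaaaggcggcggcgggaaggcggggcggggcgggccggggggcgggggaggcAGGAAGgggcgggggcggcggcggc
Timp1: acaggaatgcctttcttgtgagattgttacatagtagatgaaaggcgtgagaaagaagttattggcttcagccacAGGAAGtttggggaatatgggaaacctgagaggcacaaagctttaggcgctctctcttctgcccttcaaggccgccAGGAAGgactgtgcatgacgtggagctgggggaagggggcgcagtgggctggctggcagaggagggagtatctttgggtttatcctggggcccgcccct
Serpinb2: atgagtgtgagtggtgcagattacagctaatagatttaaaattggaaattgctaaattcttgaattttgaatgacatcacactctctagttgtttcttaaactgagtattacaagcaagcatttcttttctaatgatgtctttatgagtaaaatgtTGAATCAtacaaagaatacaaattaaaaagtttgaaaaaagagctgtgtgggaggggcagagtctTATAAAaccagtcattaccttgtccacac
The search ran from 250 bases before to 50 after the start. The AP-1 letters stood in the Plaur window 69 bases before the start as TGACTCA and in this Serpinb2 window 94 bases before it as TGAATCA, and 7.79% of 32544 RefSeq windows of this length held them. AGGAAG stood in the windows of Plaur, Serpine2, Timp1 and Timp3 and in 35.1% of all windows. TATAAA stood 29 bases before the Serpinb2 start and in 13.6% of all windows. The Timp2 window held none of these letters. Entries were found for 6 of the 8 members, all but Plau and Plat.

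Per transcript length, Serpinb2 and Timp2 had the highest means in WT wounds at day 14, and Plaur and Timp3 the lowest. Mean RPKM (CPM per kilobase of the deposited transcript length) in the 7 WT wounds was 119 ± 25.1 (SD) for Serpinb2, 92.1 ± 56.4 for Timp2, 59.96 ± 31.9 for Timp1, 46.8 ± 10.5 for Plau, 41.05 ± 32.6 for Plat, 40.9 ± 34.95 for Serpine2, 27.2 ± 24.9 for Plaur and 14.9 ± 6.34 for Timp3. Neighbours in this order differed by less than the larger of their SDs. In the 7 Col5a1CKO wounds the order of mean RPKM was Serpinb2 (267 ± 286), Serpine2 (257 ± 211), Timp2 (237 ± 96.03), Timp1 (207 ± 72.7), Plaur (117 ± 102), Plat (76.9 ± 30.4), Plau (48.2 ± 12.5) and Timp3 (27.9 ± 11.7). Serpine2 and Plaur had moved up in this order and Plau down, and neighbours again differed by less than the larger of their SDs, except Plau and Timp3.

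**Figure D1:**
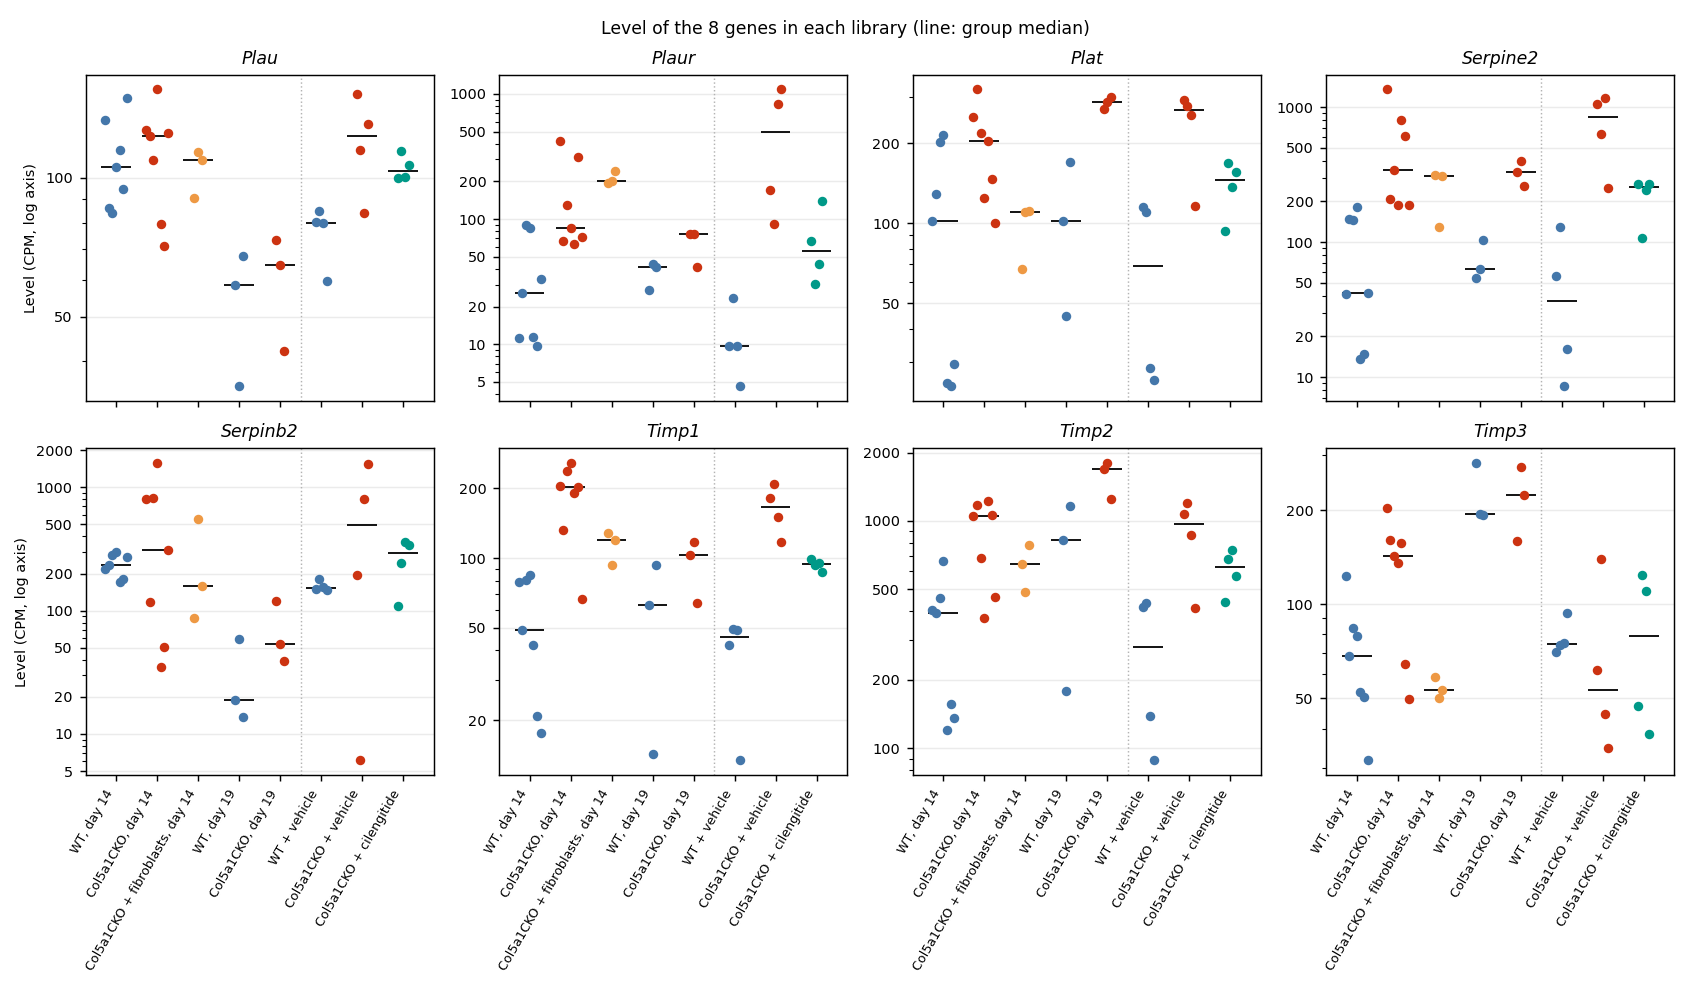
Level of each gene in every library as CPM on a log axis, 1 panel per gene and 1 point per library, with a line at the group median and a dotted line between the count tables, which were scaled separately. Serpine2 points of Col5a1CKO wounds lie above those of WT wounds at day 14, day 19 and with vehicle, while Plau points overlap in all of these.

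Col5a1CKO and WT wounds were first compared at day 14. Plaur, Serpine2 and Timp1, 3 of the 8 members, were called higher in Col5a1CKO (Benjamini-Hochberg adjusted p under 0.05 by edgeR's quasi-likelihood method, and at least 2-fold), and none was called lower. Over all 14367 genes tested, 8.28% were called, 5.57% higher and 2.71% lower (800 and 390 genes, against 1018 and 246 when scaled by library size only). The fitted difference was above 0 for all 8 members, although Plau and Serpinb2 were below 0 within the upper set, with a median log2 fold change of 1.26 against −0.032 over all genes. With the library set as a covariate 5 members were called higher, Plat and Timp2 being added, where 9.28% of genes were. Within the lower set 1 was called higher, Timp1, against 3.68% of genes, and within the upper set 3, Plat, Serpine2 and Timp2, against 8.81%.

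At day 19, with 3 wounds a group, edgeR called 0 members and 0.0198% of 15135 genes. At an unadjusted p under 0.05 with 2-fold, 2 members were higher in Col5a1CKO, Serpine2 and Plat, against 5.38% of all genes in that direction, and DESeq2 called the same 2, with 3.73% of genes higher. The median log2 fold change of the members was 1.02 against −0.010 over all genes. The test of the difference between the days (genotype by day interaction) called 0 members and 0.0% of 15954 genes in edgeR, 0 members at an unadjusted p under 0.05 with 2-fold against 4.49% of all genes, and 0 members in DESeq2. The interaction, the Col5a1CKO minus WT difference of day 19 less that of day 14, was below 0 for Plaur (−1.28 ± 1.02 on the log2 scale), Timp1 (−1.03 ± 0.76), Timp3 (−0.87 ± 0.56), Serpine2 (−0.43 ± 1.05) and Timp2 (−0.20 ± 0.80), and above 0 for Plat (0.55 ± 0.87), Plau (0.14 ± 0.39) and Serpinb2 (0.13 ± 1.16), at edgeR adjusted p of 0.962 or more.

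In the vehicle-treated mice of the second table, which share no library with the comparisons above, 5 members were called higher in Col5a1CKO wounds, namely Plaur, Serpine2, Timp1, Plat and Timp2, and none lower. Here 30.9% of 15434 genes were called, 17.5% higher and 13.4% lower. The median log2 fold change of the members was 1.86 against 0.024 over all genes. Plaur, Serpine2 and Timp1 kept their calls in all 8 fits that left out 1 library.

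Cilengitide was then compared with vehicle in Col5a1CKO mice. Plaur and Serpine2 were called lower with cilengitide, 2 of 8 members, where 13.1% of 15563 genes were called, 6.48% higher and 6.59% lower. The median log2 fold change of the members was −0.80 against −0.061 over all genes. Relative to WT vehicle, Plaur and Timp1 were called higher in the cilengitide group, 2 of 8, where 8.58% of 15514 genes were called, 5.15% higher and 3.43% lower. These comparisons share the Col5a1CKO vehicle or the WT vehicle libraries with the genotype comparison.

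**Figure D2:**
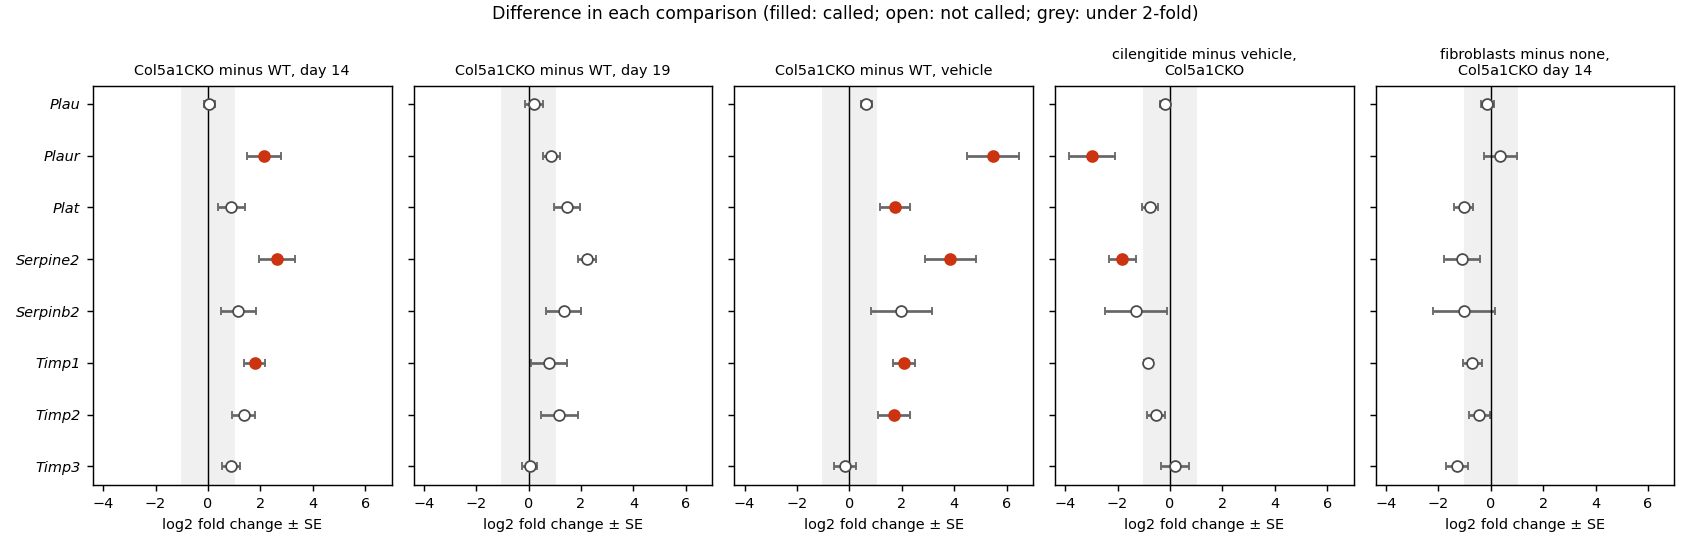
log2 fold change with its standard error for each gene in 5 comparisons, from edgeR, with called points filled (adjusted p under 0.05 and at least 2-fold), other points open and a grey band over changes under 2-fold. Plaur, Serpine2 and Timp1 are filled at day 14 and with vehicle, and no point is filled at day 19 or for fibroblast injection.

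Plaur, the urokinase receptor, showed the largest fold of the members in the vehicle-treated mice. It lay at 9.72, 23.5, 9.65 and 4.61 CPM in the 4 WT vehicle wounds and at 169, 92.04, 832 and 1087 CPM in the 4 Col5a1CKO vehicle wounds. All 4 Col5a1CKO wounds lay above every WT wound, as 23.4% of the genes tested did, and numbers 3 and 4 were far above the other two. The fitted log2 fold change was 5.49 ± 0.997 (SE, edgeR adjusted p = 0.00377). With cilengitide Plaur was at 66.8, 30.4, 43.4 and 139 CPM, above all WT wounds, and number 4 lay above the lowest Col5a1CKO vehicle wound. The difference from vehicle was −2.99 ± 0.89 on the log2 scale (edgeR adjusted p = 0.0439) and that from WT vehicle 2.56 ± 0.62 (edgeR adjusted p = 0.0302), the latter without overlap, as for 14.4% of genes. The call against vehicle was lost in 5 of 8 fits that left out 1 library (Col5a1CKO vehicle 3 or 4 and cilengitide 1, 2 or 3, edgeR adjusted p 0.06896 to 0.111) and without the filter on low counts (edgeR adjusted p = 0.0512). The call against WT vehicle was lost in 6 of 8 fits that left out 1 library (WT vehicle 1, 3 or 4 and cilengitide 2, 3 or 4, edgeR adjusted p 0.0521 to 0.07697) and with all 3 groups in 1 fit (edgeR adjusted p = 0.0804).

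At day 14 Plaur ranged from 9.75 through a median of 25.5 to 89.6 CPM in the 7 WT wounds and from 62.7 through a median of 85.1 to 417 CPM in the 7 Col5a1CKO wounds. The groups overlapped through WT c and d, the highest WT wounds. Plaur differed by 2.12 ± 0.65 on the log2 scale (edgeR adjusted p = 0.0479), and the call was lost in 10 of 14 fits that left out 1 library (WT a, b, e, f or g and Col5a1CKO a, b, c, e or f, edgeR adjusted p 0.0524 to 0.117) and without the filter on low counts (edgeR adjusted p = 0.0542). Within the lower set the log2 fold change was 1.52 ± 0.82 and within the upper set 3.50 ± 0.90, neither called (edgeR adjusted p = 0.272 and 0.0703). At day 19 Plaur was at 26.9, 43.7 and 41.5 CPM in WT and 76.4, 76.5 and 41.8 CPM in Col5a1CKO wounds, with Col5a1CKO c inside the WT range and a log2 fold change of 0.87 ± 0.31 (edgeR adjusted p = 0.1802).

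Plau, the urokinase-type activator, varied less. At day 14 it ranged from 71.2 through a median of 123 to 156 CPM in Col5a1CKO and from 84.1 through a median of 106 to 149 CPM in WT wounds, with overlapping groups and a log2 fold change of 0.048 ± 0.20 (95% interval −0.35 to 0.45). At day 19 it was at 58.5, 35.3 and 67.7 CPM in WT and 73.3, 64.8 and 42.1 CPM in Col5a1CKO wounds, all below the lowest WT wound of day 14. The genotypes overlapped at day 19, with a log2 fold change of 0.21 ± 0.35 (edgeR adjusted p = 0.724). In vehicle-treated mice Plau was at 80.1, 84.8, 79.9 and 59.7 CPM in WT and 152, 115, 83.9 and 131 CPM in Col5a1CKO wounds. That difference, 0.64 ± 0.20 on the log2 scale, passed the adjusted p (0.0296 in edgeR) but not the 2-fold limit, and Col5a1CKO 3 lay inside the WT range. With cilengitide the wounds were at 100.1, 114, 100.3 and 107 CPM, all above the WT vehicle wounds, at 0.47 ± 0.11 (edgeR adjusted p = 0.0255), again under 2-fold. The difference from Col5a1CKO vehicle was −0.20 ± 0.18 (edgeR adjusted p = 0.426).

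The ratio of Plaur to Plau RPKM was 0.142 to 1.79 (median 0.371) in WT and 0.902 to 7.38 (median 1.32) in Col5a1CKO wounds at day 14. With vehicle it was 1.34 to 16.6 in Col5a1CKO and 0.1296 to 0.466 in WT wounds, and with cilengitide 0.447 to 2.18. At day 19 it was 1.66 to 1.98 in Col5a1CKO against 0.773 to 2.08 in WT wounds, and after fibroblast injection 2.98 to 3.75. The vehicle-treated genotypes did not overlap in this ratio, whereas those of the first table did at day 14 and at day 19, where WT b lay above every Col5a1CKO wound. No test was run on it.

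Plat, the tissue-type activator, was at 115, 110.2, 28.4 and 25.7 CPM in the WT vehicle wounds and 292, 277, 256 and 116 CPM in the Col5a1CKO vehicle wounds. The groups did not overlap, but WT 1 (114.9 CPM) and Col5a1CKO 4 (115.7 CPM) were nearly equal. Plat differed by 1.74 ± 0.59 on the log2 scale (edgeR adjusted p = 0.0406), and the call was lost in 5 of 8 fits that left out 1 library (WT 3 or 4 and Col5a1CKO 1, 2 or 3, edgeR adjusted p 0.0763 to 0.0850) and without the filter on low counts (edgeR adjusted p = 0.05103). With cilengitide Plat was at 93.7, 169, 137 and 156 CPM, a log2 difference of −0.77 ± 0.31 from vehicle and 0.997 ± 0.52 from WT vehicle (edgeR adjusted p = 0.104 and 0.187).

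At day 14 Plat ranged from 100 through a median of 203 to 319 CPM in Col5a1CKO and from 24.3 through a median of 102 to 215 CPM in WT wounds, with a log2 fold change of 0.89 ± 0.51 (edgeR adjusted p = 0.273). The groups overlapped, and WT e, f and g of the upper set, at 24.99, 24.3 and 29.5 CPM, lay far below the WT wounds of the lower set, at 102, 129, 202 and 215 CPM. The log2 fold change was 2.33 ± 0.22 within the upper set and 0.45 ± 0.29 within the lower set (edgeR adjusted p = 0.03702 and 0.356). At day 19 Plat was at 102, 44.9 and 171 CPM in WT and 268, 287 and 298 CPM in Col5a1CKO wounds, which lay close together above every WT wound, as for 16.4% of genes (log2 fold change 1.46 ± 0.51, edgeR adjusted p = 0.172).

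Serpine2, protease nexin 1, separated the genotypes at both days and with vehicle. At day 14 it ranged from 189 through a median of 342 to 1352 CPM in Col5a1CKO and from 13.6 through a median of 42.2 to 183 CPM in WT wounds. Every Col5a1CKO wound was above every WT wound, as held for 2.31% of the genes tested, although WT d (182.8 CPM) and Col5a1CKO g (188.6 CPM) were close. The log2 fold change was 2.64 ± 0.68 (edgeR adjusted p = 0.0252). Without Col5a1CKO a, the highest library, it was 2.22 and not called (edgeR adjusted p = 0.0609), and the other 13 fits that left out 1 library kept the call. Within the lower set the log2 fold change was 2.16 ± 0.72 and within the upper set 4.17 ± 0.81 (edgeR adjusted p = 0.0930 and 0.0474).

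At day 19 Serpine2 was at 54.1, 62.9 and 104 CPM in WT and 331, 399 and 261 CPM in Col5a1CKO wounds. The groups did not overlap, and the log2 fold change of 2.22 ± 0.35 missed the adjusted threshold in edgeR (adjusted p = 0.1102) and passed it in DESeq2 (adjusted p = 5.03e-07) and in edgeR without WT c (adjusted p = 0.0288). Over both days the 10 Col5a1CKO wounds of the first table all lay above the 10 WT wounds, which held for no other member. The highest WT value was 182.8 CPM and the lowest Col5a1CKO value 188.6 CPM. The share of all genes separated so over both days was not computed, and it was 2.31% at day 14 and 16.4% at day 19 alone. In vehicle-treated mice Serpine2 was at 56.6, 129.6, 8.54 and 16.2 CPM in WT and 1049, 626, 1171 and 250.2 CPM in Col5a1CKO wounds. All Col5a1CKO wounds lay above all WT wounds again, with a log2 fold change of 3.86 ± 0.96 (edgeR adjusted p = 0.0128).

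With cilengitide Serpine2 was at 268, 108, 241 and 268 CPM. Number 2 fell inside the WT vehicle range, and numbers 1 and 4 lay above Col5a1CKO vehicle 4, the lowest wound of its group. The log2 difference from vehicle was −1.82 ± 0.51 (edgeR adjusted p = 0.0357). The call was lost in 6 of 8 fits that left out 1 library (Col5a1CKO vehicle 1 or 3 and each cilengitide library, edgeR adjusted p 0.0719 to 0.0928), and with all 3 groups in 1 fit (edgeR adjusted p = 0.0973). Against WT vehicle the log2 difference was 2.08 ± 0.80 (edgeR adjusted p = 0.0942), which DESeq2 called (adjusted p = 0.01198).

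Serpinb2, plasminogen activator inhibitor 2, spread more widely among Col5a1CKO than among WT wounds. At day 14 it ranged from 34.8 through a median of 309 to 1572 CPM in Col5a1CKO and from 170.2 through a median of 235 to 299 CPM in WT wounds, with Col5a1CKO libraries both below and above all WT wounds. The vehicle-treated mice had the same layout, with 150.3, 179.7, 156 and 147 CPM in WT and 195, 6.13, 799 and 1541 CPM in Col5a1CKO wounds. The log2 fold changes were 1.16 ± 0.67 and 1.98 ± 1.17, neither called (edgeR adjusted p = 0.277 and 0.1905). Without Col5a1CKO vehicle 2, the library with neither Xist nor Y-linked RNA, the second was called at 2.39 (edgeR adjusted p = 0.01795). The difference in spread was not tested.

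With cilengitide Serpinb2 was at 109.5, 244, 362 and 341 CPM, inside the range of the Col5a1CKO vehicle wounds (log2 fold change −1.29 ± 1.19, edgeR adjusted p = 0.448) and overlapping with WT vehicle (0.74 ± 0.32, edgeR adjusted p = 0.128). At day 19 it was at 18.96, 58.7 and 13.7 CPM in WT and 120.1, 54.1 and 38.8 CPM in Col5a1CKO wounds, with overlap (log2 fold change 1.34 ± 0.66, edgeR adjusted p = 0.262). All 3 WT values lay below every WT value of day 14.

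Timp1, a secreted TIMP, was called higher in Col5a1CKO wounds both at day 14 and with vehicle. At day 14 it ranged from 66.5 through a median of 202 to 256 CPM in Col5a1CKO and from 17.6 through a median of 48.95 to 84.6 CPM in WT wounds. Of the Col5a1CKO wounds only g, the lowest, fell inside the WT range. The log2 fold change was 1.78 ± 0.40 (edgeR adjusted p = 0.0129), called in all 14 fits that left out 1 library. It was 1.47 ± 0.24 within the lower set and 2.42 ± 0.63 within the upper set (edgeR adjusted p = 0.00799 and 0.07198). With vehicle it was at 42.3, 49.6, 48.9 and 13.5 CPM in WT and 181, 209, 149.9 and 117 CPM in Col5a1CKO wounds, without overlap (log2 fold change 2.08 ± 0.41, edgeR adjusted p = 0.005202).

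The cilengitide group lay between these groups in Timp1, at 99.1, 93.02, 94.7 and 87.3 CPM, with no overlap on either side. It differed from Col5a1CKO vehicle by −0.82 ± 0.18 on the log2 scale (edgeR adjusted p = 0.0171), under the 2-fold limit, where 12.7% of genes were lower without overlap. It differed from WT vehicle by 1.29 ± 0.35 (edgeR adjusted p = 0.0403). That call was lost in 6 of 8 fits that left out 1 library (WT vehicle 1 or 3 and each cilengitide library, edgeR adjusted p 0.0638 to 0.0885), and with all 3 groups in 1 fit (edgeR adjusted p = 0.0513). At day 19 Timp1 was at 62.9, 14.4 and 93.6 CPM in WT and 103, 117 and 64.2 CPM in Col5a1CKO wounds, with overlap (log2 fold change 0.77 ± 0.68, edgeR adjusted p = 0.494).

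Timp2, which inhibits metalloproteinases and also takes part in activating pro-MMP2 at the cell surface, was higher in most Col5a1CKO wounds, with tests close to the threshold. At day 14 it ranged from 372 through a median of 1047 to 1218 CPM in Col5a1CKO and from 120.5 through a median of 393 to 664 CPM in WT wounds, and 5 of the Col5a1CKO wounds lay above all WT wounds of that day. The log2 fold change was 1.36 ± 0.43 and not called (edgeR adjusted p = 0.0546), while DESeq2 called it (adjusted p = 0.01501), as did edgeR with the library set as a covariate (1.46 ± 0.34, adjusted p = 0.00873). It was 0.89 ± 0.32 within the lower and 2.57 ± 0.41 within the upper set (edgeR adjusted p = 0.109 and 0.0398).

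With vehicle Timp2 was at 419, 436, 138 and 88.6 CPM in WT and 1072, 1202, 866 and 415 CPM in Col5a1CKO wounds, the last of them below WT 1 and 2. That log2 fold change of 1.71 ± 0.60 was called (edgeR adjusted p = 0.0459), and the call was lost in 6 of 8 fits that left out 1 library (WT 1, 3 or 4 and Col5a1CKO 1, 2 or 3, edgeR adjusted p 0.0544 to 0.109), without the filter on low counts and with scaling by library size only (edgeR adjusted p = 0.0543 and 0.0521). With cilengitide it was at 439, 678, 745 and 574 CPM, −0.55 ± 0.34 from vehicle (edgeR adjusted p = 0.259) and 1.18 ± 0.50 from WT vehicle (edgeR adjusted p = 0.119), the latter without overlap. At day 19 it was at 821, 178 and 1158 CPM in WT and 1687, 1796 and 1254 CPM in Col5a1CKO wounds, without overlap (log2 fold change 1.17 ± 0.71, edgeR adjusted p = 0.334).

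Timp3, which binds the matrix and also inhibits ADAM proteases, was called in no genotype comparison. It ranged from 49.7 through a median of 142 to 203 CPM in Col5a1CKO and from 31.7 through a median of 68.3 to 123 CPM in WT wounds at day 14, with overlap and a log2 fold change of 0.88 ± 0.34 (edgeR adjusted p = 0.1101). With vehicle it was at 70.2, 74.2, 74.98 and 93.8 CPM in WT and 61.4, 139.7, 44.6 and 34.6 CPM in Col5a1CKO wounds, 3 of which lay below and 1 above all WT wounds. The log2 fold change of −0.17 ± 0.43 (95% interval −1.004 to 0.66) changed sign without Col5a1CKO 3 or 4, to 0.035 and 0.12. Without Col5a1CKO 2, the only one above the WT wounds, it was −0.77 ± 0.22 (edgeR adjusted p = 0.0295), under 2-fold. With cilengitide it was at 47.2, 124, 111 and 38.5 CPM, inside the Col5a1CKO vehicle range, 0.18 ± 0.54 from Col5a1CKO vehicle and 0.028 ± 0.37 from WT vehicle (edgeR adjusted p = 0.828 and 0.9598). At day 19 the genotypes overlapped, with a log2 fold change of 0.032 ± 0.29 (95% interval −0.54 to 0.60).

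The TIMPs were then set against each other per transcript length, as shares of their summed RPKM, with no test. At day 14 Timp3 made up 5.74 to 13.9% (median 10.6%) of that sum in WT and 2.57 to 7.71% (median 6.28%) in Col5a1CKO wounds. With vehicle its share was 8.26 to 33.6% in WT, 2.28 to 5.005% in Col5a1CKO and 3.103 to 8.305% in cilengitide-treated wounds. The summed RPKM was 213 to 585 in Col5a1CKO against 64.1 to 295 in WT wounds at day 14, and 253 to 596 against 59.7 to 192 with vehicle. At day 19 Timp1 made up 15.5 to 19.2% in Col5a1CKO and 15.2 to 22.6% in WT wounds, below every day 14 library of the first table, where its lowest share was 29.4%.

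**Figure D3:**
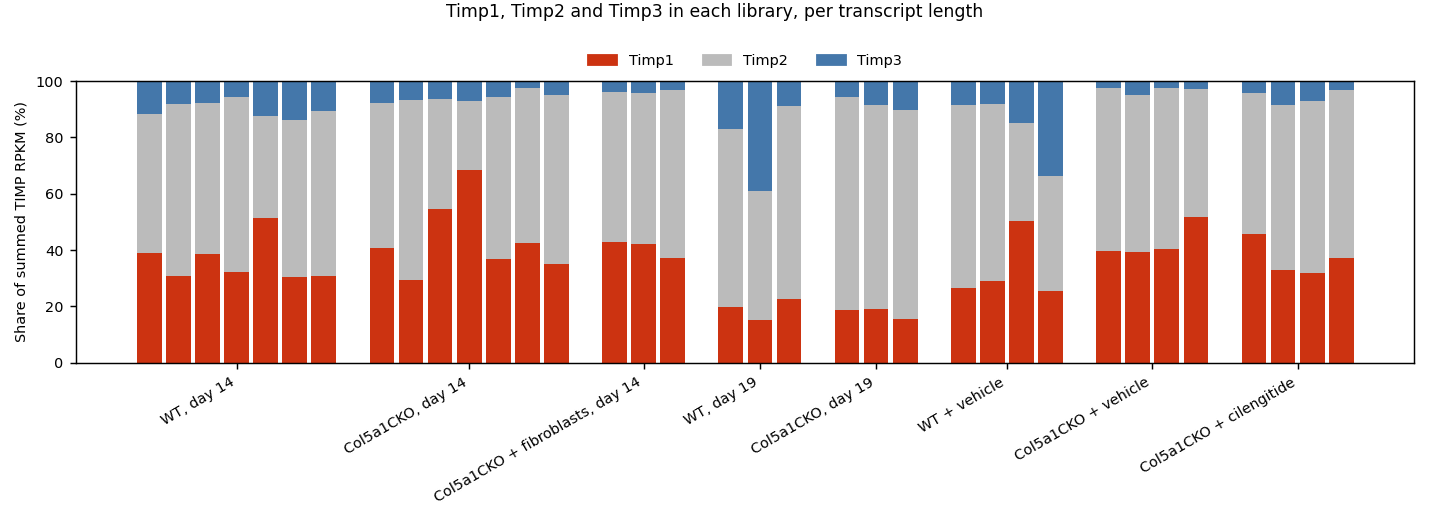
Share of Timp1, Timp2 and Timp3 in their summed RPKM (%), 1 bar per library in letter or number order within each group. The Timp1 share is at most 22.6% in the day 19 bars and at least 29.4% in every day 14 bar of the first table, and the Timp3 share is 2.28 to 5.005% in Col5a1CKO vehicle bars against 8.26 to 33.6% in WT vehicle bars.

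The days were compared within each genotype on the upper set alone, since every day 19 library belongs to it. In WT wounds, 3 against 3, 5 members were called between day 19 and day 14, where 24.3% of 15059 genes were called, 14.2% higher and 10.1% lower (2133 and 1521 genes, against 3646 and 733 when scaled by library size only). Timp3 rose from 52.5, 50.3 and 31.7 CPM to 283, 194 and 193 CPM, a log2 change of 2.46 ± 0.29 (edgeR adjusted p = 0.00497) that was called in all 6 fits that left out 1 library. With all 7 WT wounds of day 14 included it was 1.69 ± 0.39 (edgeR adjusted p = 0.0280). Serpinb2 fell from 170.2, 182 and 271 CPM to 18.96, 58.7 and 13.7 CPM, a log2 change of −2.68 ± 0.56 (edgeR adjusted p = 0.0170), and −2.98 ± 0.48 with all WT wounds (edgeR adjusted p = 0.00632). Its call was lost in 4 of 6 fits that left out 1 library (day 14 e, f or g and day 19 a, edgeR adjusted p 0.0505 to 0.0634). The days did not overlap in either gene, as for 22.2% of genes higher and 31.9% lower.

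Plat, Serpine2 and Timp2 were also called higher at day 19 in WT wounds, by 2.18 ± 0.51, 1.79 ± 0.54 and 2.57 ± 0.69 on the log2 scale (edgeR adjusted p = 0.0236, 0.0455 and 0.0343), without overlap. These calls were not kept with all 7 WT wounds of day 14, where the changes were 0.043, −0.20 and 1.14 (edgeR adjusted p = 0.983, 0.9205 and 0.3195). Plat lost its call in 4 of 6 fits that left out 1 library (day 14 e, f or g and day 19 a, edgeR adjusted p 0.06697 to 0.0879), Serpine2 in 4 of 6 fits that left out 1 library (day 14 e or f and day 19 a or c, edgeR adjusted p 0.0851 to 0.132) and Timp2 in 5 of 6 fits that left out 1 library (day 14 e, f or g and day 19 a or c, edgeR adjusted p 0.0705 to 0.118). Plau, Plaur and Timp1 changed by −0.998 ± 0.33, 1.18 ± 0.51 and 1.26 ± 0.73, none of them called (edgeR adjusted p = 0.0573, 0.116 and 0.212). Of the cell type markers described below, 5 of 8 fibroblast and 6 of 6 endothelial genes were called higher at day 19 in the same comparison (medians 2.87 and 2.29 on the log2 scale), with 3 of 4 mast cell and 3 of 4 adipocyte genes, and 4 of 8 keratinocyte genes lower (median −1.71). Sex also differed, as the 3 WT wounds of day 14 compared here were male and 2 of the 3 of day 19 female. The part of the markers and of sex in these changes was not tested.

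In Col5a1CKO wounds, 3 of day 19 against the 2 of day 14 in the upper set, edgeR called 0 of 8 members and 0.0% of 15240 genes. At an unadjusted p under 0.05 with 2-fold, 2 members were higher at day 19, Timp3 and Plat, against 6.08% of genes in that direction, and DESeq2 called the same 2, with 5.43% of genes higher. Timp3 was at 64.2 and 49.7 CPM at day 14 and 159, 275 and 223 CPM at day 19, without overlap, as for 20.0% of genes, a log2 change of 1.99 ± 0.32 (edgeR adjusted p = 0.0812). Plat was at 147 and 100 CPM at day 14 and 268, 287 and 298 CPM at day 19, also without overlap, a log2 change of 1.25 ± 0.25 (edgeR adjusted p = 0.09502). The changes of Serpine2 and Timp1 went from −0.24 to 0.90 and from −0.47 to 0.61 without Col5a1CKO f of day 14, that of Plaur from −1.54 to −0.045, and that of Serpinb2 from −1.26 to 0.49 without g. Timp2 changed by 1.09 ± 0.49 and Plau by −0.65 ± 0.35 (edgeR adjusted p = 0.259 and 0.329), and the adjusted p of the other 4 was 0.269 or more. The WT and Col5a1CKO libraries of these comparisons are also those of the genotype comparisons.

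Injection of WT fibroblasts was compared with Col5a1CKO wounds of day 14 without fibroblasts, where edgeR called 0 of 8 members and 0.0% of 15659 genes. At an unadjusted p under 0.05 with 2-fold, Timp3 and Plat were lower, 2 of 8 against 5.45% of genes in that direction, and DESeq2 called 0. Timp3 was at 58.6, 50.03 and 53.04 CPM after injection, at the bottom of the range of Col5a1CKO wounds without fibroblasts, a log2 difference of −1.29 ± 0.42 (edgeR adjusted p = 0.365). Plat was at 67.4, 110.2 and 111 CPM, a log2 difference of −1.03 ± 0.37 (edgeR adjusted p = 0.365). Within the upper set, where wounds f and g without fibroblasts were at 64.2 and 49.7 CPM of Timp3 and 147 and 100 CPM of Plat, these differences were −0.021 ± 0.21 and −0.30 ± 0.32. For the other members the log2 differences were 0.37 ± 0.62 for Plaur, −0.13 ± 0.25 for Plau, −1.08 ± 0.69 for Serpine2, −1.01 ± 1.18 for Serpinb2, −0.71 ± 0.36 for Timp1 and −0.44 ± 0.40 for Timp2 (edgeR adjusted p of 0.419 or more).

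Plaur after injection was at 194, 202 and 244 CPM, above all 7 WT wounds, as for 10% of genes. It was the only member called against WT (log2 fold change 2.62 ± 0.67, edgeR adjusted p = 0.0403), where 5.84% of 15316 genes were called, 3.77% higher and 2.06% lower. That call was lost in 7 of 10 fits that left out 1 library (WT a, b, e or g and each injected wound, edgeR adjusted p 0.0556 to 0.1704). Within the upper set, 3 against 3, where 19.8% of genes were called higher, 5 members were called higher than WT, Plaur (3.71 ± 0.53), Serpine2 (3.57 ± 0.63), Timp2 (2.37 ± 0.23), Timp1 (2.24 ± 0.35) and Plat (2.02 ± 0.22), at edgeR adjusted p of 0.000498 to 0.00547. Against all 7 WT wounds the log2 differences were 1.71 ± 0.75 for Serpine2, 1.21 ± 0.47 for Timp1, 1.06 ± 0.51 for Timp2, 0.28 ± 0.46 for Serpinb2, 0.059 ± 0.25 for Plau, 0.004 ± 0.71 for Plat and −0.26 ± 0.38 for Timp3 (edgeR adjusted p of 0.158 or more), of which only Timp1 did not overlap. Serpine2 was at 316, 129 and 311 CPM, Timp1 at 128, 93.8 and 119.6 CPM and Timp2 at 649.5, 487 and 784 CPM after injection, and all 3 overlapped with Col5a1CKO wounds without fibroblasts. Serpinb2 was at 86.7, 556 and 159.8 CPM and Plau at 90.4, 114 and 109 CPM, inside the ranges of the latter. In the injected wounds macrophage and monocyte markers summed to 2404 to 2852 CPM and neutrophil markers to 8173 to 9941 CPM, with 5 of 7 and 2 of 6 tested genes called higher than in WT (median log2 fold changes 1.90 and 3.44), beside 3 of 6 endothelial genes. Their part in these differences was not tested. The comparisons with fibroblasts share their WT or Col5a1CKO libraries with the genotype comparison of day 14.

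Markers of the cell types in the biopsies moved with these groups. Macrophage and monocyte markers, 7 of whose 8 genes were in the tables, summed to 1848 to 5722 CPM in Col5a1CKO wounds at day 14, against 443 to 3203 CPM in WT. In the second table they summed to 315 to 1074 CPM in WT vehicle, 3558 to 6638 CPM in Col5a1CKO vehicle and 1474 to 1971 CPM in cilengitide-treated wounds. Of the 7 genes tested, 5 were called higher in Col5a1CKO at day 14 and 7 with vehicle, and 6 lower with cilengitide than with vehicle. Col5a1CKO vehicle 3 and 4, with most Plaur, had the highest sums of that table. Neutrophil markers, again 7 of 8 in the tables, summed to 1685 to 20840 CPM in Col5a1CKO and 1148 to 8922 CPM in WT wounds at day 14, and to 95.8 to 2210, 1533 to 43840 and 3176 to 7223 CPM in WT vehicle, Col5a1CKO vehicle and cilengitide. Of the 6 tested, 2 were called higher in Col5a1CKO at day 14 and 5 with vehicle. Elane was at 0 in all WT libraries of day 14 in both tables. The part of these markers in the Plaur result was not tested.

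Keratinocyte markers (8 of 8 in the tables) moved the other way, at 40.1 to 57840 CPM in Col5a1CKO and 30400 to 153700 CPM in WT wounds of day 14, and at 59850 to 97290, 67.3 to 11320 and 32200 to 67130 CPM in WT vehicle, Col5a1CKO vehicle and cilengitide. None of the 8 was called at day 14, while 6 were called lower in Col5a1CKO with vehicle. Col5a1CKO vehicle 2, with least Serpinb2 (6.13 CPM), also had the lowest keratinocyte sum of its table, whereas Col5a1CKO a of day 14, with the lowest sum of the first table, had 809.8 CPM of Serpinb2. Fibroblast markers (8 of 8) summed to 8664 to 9649 CPM in the WT wounds of the upper set at day 14 and to 49830 to 84110 CPM in those of the lower set, a split that Plat, Timp1, Timp2 and Timp3 shared without overlap (Timp1 17.6 to 42.1 against 48.95 to 84.6 CPM, Timp3 31.7 to 52.5 against 68.3 to 123 CPM). The macrophage and monocyte, endothelial and mast cell sums of these WT wounds split the same way without overlap. Their keratinocyte sums split the opposite way, at 100700 to 153700 CPM in the upper and 30400 to 33850 CPM in the lower set. Neutrophil, skeletal muscle and adipocyte sums overlapped. The share of all genes that split so was not computed. Fibroblast markers were at 9929 to 14290 CPM in WT vehicle 3 and 4, where Plat, Serpine2 and Timp2 were lowest, and at 47700 to 56240 CPM in WT vehicle 1 and 2. In Col5a1CKO wounds they were at 31910 to 128700 CPM at day 14, 112100 to 152400 CPM at day 19 and 23840 to 114300 CPM with vehicle. At day 19 WT b, the lowest library in Plat, Timp1 and Timp2 there, had a fibroblast sum of 12240 CPM against 56690 to 117000 CPM in WT a and c. Endothelial markers (6 of 6) summed to 238 to 590.4 CPM in Col5a1CKO and 71.7 to 286 CPM in WT wounds at day 14, 393 to 920 against 53.3 to 374 CPM with vehicle and 688 to 1106 against 281 to 612 CPM at day 19. The fitted difference was above 0 for all 6 in these 3 comparisons, and 4 of 6 were called higher at day 14, 3 of 6 with vehicle and 0 of 6 at day 19, against 2 of 8, 2 of 8 and 0 of 8 fibroblast markers. No mast cell, adipocyte or skeletal muscle marker was called between the genotypes. The part of these markers in the differences was not tested.

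**Figure D4:**
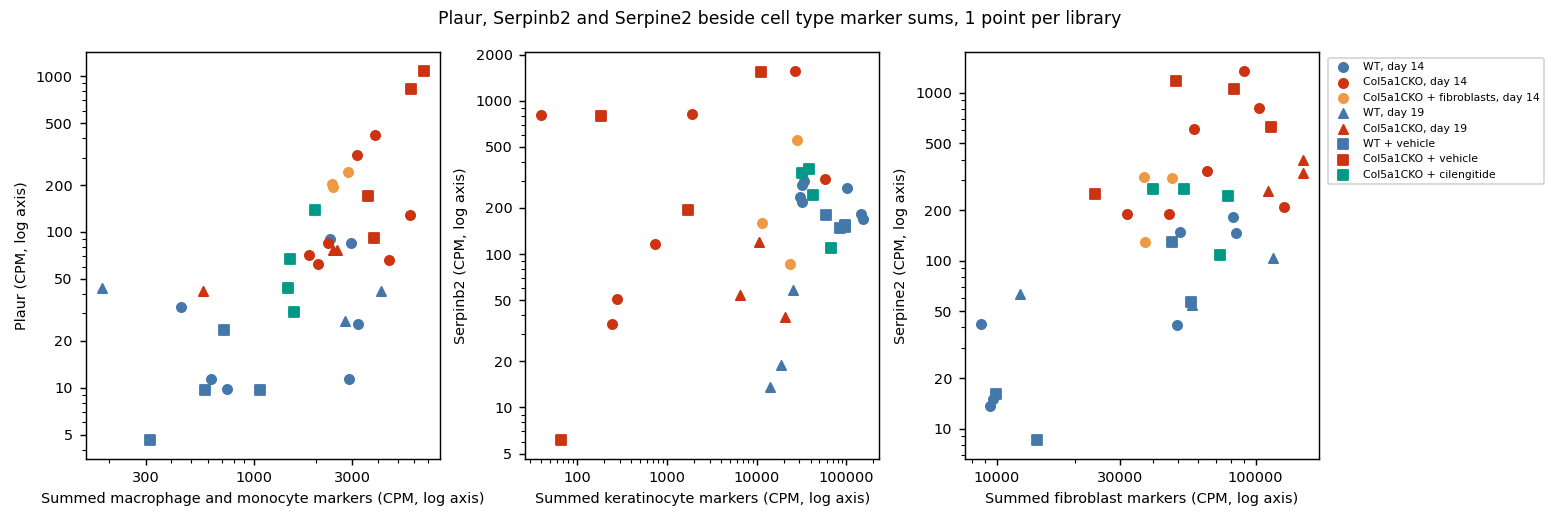
Level of Plaur, Serpinb2 and Serpine2 (CPM, log axes) against the summed CPM of macrophage, keratinocyte and fibroblast markers, 1 point per library, with colour for the group and shape for day 14, day 19 and the second table. Within the second table, Plaur and the macrophage sum are both highest in Col5a1CKO vehicle 3 and 4. Serpinb2 points of Col5a1CKO wounds without fibroblasts at day 14 span 34.8 to 1572 CPM over keratinocyte sums of 40.1 to 57840 CPM. Those of Col5a1CKO vehicle span 6.13 to 1541 CPM over sums of 67.3 to 11320 CPM.

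Other genes of the plasminogen system were read from a list of 29 (those named had the lowest adjusted p), of which 17 were tested at day 14. In Col5a1CKO wounds 3 were called higher, Lrp1 and Serping1 among them, and 1 lower, Serpinb8, with a median log2 fold change of 0.62 over the 17. Of all genes, 5.57% were called higher and 2.71% lower there. Lrp1, the endocytic receptor that clears serpin and protease complexes, had means of 831 ± 218 CPM (SD) in the 7 Col5a1CKO and 258 ± 49.1 CPM in the 7 WT wounds (log2 fold change 1.70, edgeR adjusted p = 0.00218). Serping1, the C1 inhibitor, rose from 91.3 ± 76.5 to 314 ± 156 CPM from WT to Col5a1CKO wounds (1.76, edgeR adjusted p = 0.0497). Serpinb8, another intracellular-type serpin, fell from 179 ± 32.2 to 42.1 ± 40.1 CPM from WT to Col5a1CKO wounds (−2.08, edgeR adjusted p = 0.0157).

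With vehicle 18 of the list were tested. Their median was 1.07, and 7 were called higher in Col5a1CKO wounds, against 17.5% of all genes, and 3 lower, against 13.4%. Lrp1 (1.66) and Serpinb8 (−2.59) were among them, with F13a1, the clot-crosslinking factor XIII subunit (3.49), and Hgf, hepatocyte growth factor (3.78), higher and the membrane protease gene St14 (−3.54) and Serpinf2, encoding the plasmin inhibitor (−2.25), lower. With cilengitide Hgf and F13a1 were called lower than with vehicle (−2.13 and −1.957) and Serpinb8 higher (1.64), 3 of 21 tested. Of all genes, 6.48% were called higher and 6.59% lower in that comparison. Against WT vehicle 8 of 21 were called higher with cilengitide, led by Lrp1 (1.02), A2m (4.09) and Hgf (1.68), where 5.15% of all genes were. A2m was near 0 in both of these groups, at 0.349 to 0.817 CPM with cilengitide and 0 to 0.0713 CPM in WT vehicle, so that its fitted fold depends on the prior count, and Serpinf2 was likewise low, at 0.0341 to 0.4604 CPM in Col5a1CKO vehicle. Fibroblast-injected wounds differed from WT in Lrp1 (1.69) and Serpinb8 (−1.73), 2 of 18, where 3.77% of all genes were called higher and 2.06% lower. In WT wounds from day 14 to day 19 (upper set), 6 of 18 were called higher, led by Vtn, Serping1 and F2r (3.09, 3.29 and 1.65), and 2 lower, F3, encoding tissue factor (−2.33), and Serpinb8 (−1.71). Of all genes, 14.2% were called higher and 10.1% lower between these days. At day 19 edgeR called 0 of 19 between the genotypes, 4 having an unadjusted p under 0.05 with 2-fold (3 higher, 1 lower). DESeq2, which fitted 25 genes of the list there, called the same numbers. Between Col5a1CKO wounds with and without fibroblasts edgeR called 0 of 20, 3 were lower at an unadjusted p under 0.05 with 2-fold, and DESeq2 called 0 of 26. Between the days in Col5a1CKO wounds edgeR called 0 of 20, and the unadjusted rule gave 5 higher and 2 lower. DESeq2, which fitted 25 of the list there, also gave 5 higher and 2 lower. For the interaction edgeR called 0 of 20, the unadjusted rule gave 1 higher, and DESeq2 called 0 of 26. By the unadjusted rule 5.38% of all genes were higher at day 19 and 5.45% lower with fibroblasts. It gave 6.08% higher between the days in Col5a1CKO wounds and 4.49% in either direction for the interaction. In either direction it gave 1758 of 15135 genes at day 19 and 1557 of 15240 between the days in Col5a1CKO wounds.

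Of the 20 metalloproteinases and other TIMP targets or inhibitors, 18 were tested at day 14 and 9 were called higher in Col5a1CKO wounds, none lower, with a median log2 fold change of 1.58. They were led by Mmp10, stromelysin 2 (5.18 ± 0.90, edgeR adjusted p = 0.00579), Mmp8, the neutrophil collagenase (5.03 ± 1.04, edgeR adjusted p = 0.0102), and Mmp13, an interstitial collagenase (3.42 ± 0.71, edgeR adjusted p = 0.0102). With vehicle 9 of 18 were called higher and none lower, led by Mmp19 (2.91), Mmp8 (7.55) and Mmp3, stromelysin 1 (5.61). With cilengitide 7 of 18 were called lower than with vehicle, led by Mmp19 (−1.50), Mmp12, macrophage elastase (−3.64), and Mmp13 (−2.20), and 5 of 18 higher than in WT vehicle, led by Mmp19 (1.45), Mmp3 (3.11) and Mmp8 (4.17). Fibroblast-injected wounds exceeded WT in Mmp10 (3.76) and Mmp8 (4.397), 2 of 18. In WT wounds from day 14 to day 19, 6 of 18 rose, led by Reck, a membrane inhibitor of metalloproteinases (3.05), Adamts12 (2.87) and Mmp11 (2.49). At day 19 edgeR called 0 of 19 between the genotypes, against 6 higher at an unadjusted p under 0.05 with 2-fold and 6 in DESeq2. Between Col5a1CKO wounds with and without fibroblasts edgeR called 0 of 18, against 2 lower by the unadjusted rule and 0 in DESeq2. Between the days in Col5a1CKO wounds edgeR called 0 of 18, against 5 higher and 3 lower by the unadjusted rule and in DESeq2, and for the interaction it called 0 of 19, against 1 lower by the unadjusted rule and 0 in DESeq2. DESeq2 fitted all 20 genes of this list in these last 4 comparisons, and its counts over all genes are given at the end. The other shares of all genes are those given above for the plasminogen list.

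For each member, the genes whose log2(CPM + 1) was most alike were ranked among 11493 genes by the lower of 2 Pearson correlations, over the 23 libraries of the first table centred by library set and over the 12 of the second. These are descriptions across libraries that share group, cell mixture and scaling. For Plaur they were Ifitm1 (r = 0.974 and 0.981) and Cd14, a monocyte receptor (0.961 and 0.992). Plat went with Col5a2, another type V collagen chain (0.976 and 0.989), and Adam12 (0.974 and 0.972), and Timp2 with C1qtnf6 (0.991 and 0.991) and Aebp1 (0.983 and 0.986). Serpine2 went with Crispld2 (0.964 and 0.966) and Tbx3 (0.954 and 0.986), Serpinb2 with the glucose transporter gene Slc2a1 (0.912 and 0.888) and Ap1g1 (0.844 and 0.915), and Timp1 with Dram1 (0.912 and 0.937) and Wipf1 (0.901 and 0.899). The values were lower for Timp3, with Ltbp3 (0.859 and 0.869) and Pcdh19 (0.822 and 0.851), and for Plau, with Galnt1 (0.771 and 0.927) and Tram1 (0.7695 and 0.898). Among the members, Plat and Timp2 were most alike (0.942 and 0.981), followed by Plaur and Serpine2 (0.838 and 0.804), while Serpinb2 and Timp3 ran opposite (−0.553 and −0.636).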

How the data were processed

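RNA-seq counts came from 35 libraries of mouse wound biopsies. Per the labels and the methods of the study, reads were aligned with HISAT2 to mm9, and the authors deposited raw counts per RefSeq transcript, made with SeqMonk over exons, for the first table, with a transcript length that is the base of the RPKM values here. The second deposited table holds raw counts per gene symbol, whose counting is not given in the sources used here. The row with the largest total was kept per symbol (22830 symbols), and rows naming no gene (30 and 1) held at most 0.0694% and 0.0002% of a library's counts. No column of the tables was left unmapped.

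Counts were tested with edgeR 4.0.16 (quasi-likelihood, TMM scaling, filterByExpr with a minimum count of 10, robust) in R 4.3.3, on the 2 groups of each comparison, with Benjamini-Hochberg adjustment over all genes tested. Comparisons between days used the upper library set, and the interaction used all 4 groups concerned. A gene was called at an adjusted p under 0.05 and at least 2-fold. Alternatives were DESeq2 1.42.0, other scalings and filters, summed rows, all groups in 1 fit, the library set or letter as a term, and each library left out. The test was checked on simulated data. Tables were scaled separately, so CPM and RPKM are not compared between them. The SE of an edgeR log2 fold change was taken as its absolute value divided by the square root of the F statistic. The 95% intervals are the log2 fold change ± 1.96 SE. They are approximate, and with few libraries narrower than the F test implies. For Serpinb2, cilengitide against WT vehicle, the interval was 0.102 to 1.374 beside an edgeR unadjusted p of 0.0526. The parts of counting error, library set and mouse in the spread between libraries were not separated. The study describes its replicates as separate biological ones, and the titles of the second table carry a number for each sample, whereas the labels of the first name no animal.

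The members and gene lists were chosen with earlier results of these data known. All 8 members are given in every comparison, and from each list the called genes with the lowest adjusted p, up to 3 per direction, except 1 gene that is not reported here. Likeness used genes of at least 5 CPM in both tables, and the 2 most alike are named. GC content split the first table over genes in the top and bottom 10% of GC. Promoter windows are RefSeq entries and carry no measurement.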

Additional observations from a re-analysis of the deposited data

Results flagged for a closer look

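Dixon's test at 95% picked out 1 library in 4 of the 40 sets of 4 to 7 libraries examined (8 members in 5 groups), and chance alone picks about 1 in 20. Col5a1CKO vehicle 4 had 115.7 CPM of Plat, far below the other 3 libraries of its group. WT vehicle 4 was far below its group in Plau, at 59.69 CPM, and in Timp1, at 13.5 CPM. Cilengitide-treated Col5a1CKO 2 had 108.1 CPM of Serpine2, far below the other 3.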

How the results depend on the processing

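Of 1192 values of single members under alternative settings, 1014 kept their direction and side of the threshold, 88 lost a call, 36 gained one and 54 changed sign, of which only Serpine2 between the days in WT wounds concerned a called value. The causes were not tested. With the library set as a covariate the number of members called became 5 at day 14, 5 for injected wounds against WT and 1 between the days in Col5a1CKO wounds. Over all genes that covariate called 1414 higher and 594 lower of 15244, 1535 and 1021 of 15316, and 106 and 177 of 15724. The number of members was 1 at day 14 within the lower set and 5 for injected wounds against WT within the upper set. These fits called 532 higher and 423 lower of 14472 genes, and 2999 and 1691 of 15132. At an unadjusted p the number was 2 at day 19, 2 and 3 for injected wounds against Col5a1CKO and WT, 4 for cilengitide against WT vehicle and 2 between the days in Col5a1CKO wounds. In that order 1758 of 15135, 891 of 15659, 2623 of 15316, 2218 of 15514 and 1557 of 15240 genes passed. DESeq2 called 2 at day 19, 4 for cilengitide against WT vehicle and 2 between the days in Col5a1CKO wounds. Over all genes DESeq2 called 708 higher and 782 lower of 18957, 1544 and 798 of 19002, and 1018 and 682 of 18763. Without the filter on low counts 3 were called with vehicle and 1 for cilengitide against vehicle, Plat and Timp2 losing their calls in the first and Plaur in the second. Over all genes 2743 were called higher and 2206 lower of 19417 in the first, and 1120 and 890 of 19391 in the second. With all groups in 1 fit 1 was called for cilengitide against vehicle, 0 against WT vehicle and 3 between the days in WT wounds, and with all libraries 2 there. Over all genes 1225 were called higher and 1140 lower of 15915, 310 and 173 of 15915, and 943 and 1322 of 16053. With all libraries 227 and 645 of 15180 were called. A 3-fold limit left 1 for cilengitide against WT vehicle, and the share of all genes at that limit was not computed. A sex covariate at day 14, chosen after seeing the data, kept 3 called, where 794 genes were called higher and 295 lower of 15244.

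Among the 4 comparisons with shared letters, libraries with the same letter deviated together in every pair only for injected wounds against WT. Correlations were −0.397 to 0.484 at day 14, 5 of 7 above 0, −0.415 to −0.322 at day 19, none of 3 above 0, −0.159 to 0.305 for injected wounds against Col5a1CKO, 2 of 3 above 0, and 0.0577 to 0.312 against WT, all 3 above 0. In these comparisons 4 of 14, 0 of 6, 2 of 6 and 4 of 6 libraries correlated best with their own letter, so letters were not taken to pair samples. A replicate block gave 1 called member at day 14, 2 for injected wounds against Col5a1CKO, 1 against WT and 0 at day 19. Over all genes it called 774 higher and 543 lower of 15932 at day 14. For injected wounds it called 1417 and 1114 of 15579 genes against Col5a1CKO, and 1477 and 1693 of 15155 against WT. At day 19 it called 0 higher and 7 lower of 15579.

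Leaving out 1 library at a time gave 1 to 5 called members at day 14, 0 to 1 at day 19, 3 to 5 with vehicle, 0 to 2 and 0 to 3 for cilengitide against vehicle and WT vehicle, 0 to 0 and 0 to 1 for injected wounds against Col5a1CKO and WT, 1 to 6 between the days in WT wounds and 0 to 0 in those of Col5a1CKO. Counts over all genes moved too. They were 494 to 926 higher and 191 to 984 lower at day 14, and 0 to 412 and 0 to 600 at day 19. With vehicle they were 2194 to 2917 and 1816 to 2378. For cilengitide they were 695 to 1674 and 334 to 1417 against vehicle, and 1 to 1192 and 0 to 619 against WT vehicle. For injected wounds against WT they were 207 to 650 and 73 to 372, and between the days in WT wounds 566 to 3219 and 918 to 1899. The count of members at day 14 was lowest without Col5a1CKO a and highest without Col5a1CKO g, and WT between the days fell to 1 without day 14 e or f or day 19 a. Over all genes 494 were called higher and 191 lower of 14569 without Col5a1CKO a, and 918 and 984 of 14403 without g. Signs changed, all for uncalled values, in Plau at day 14 (−0.047 to 0.13 on the log2 scale), in Plau (−0.049 to 0.43) and Timp3 (−0.17 to 0.26) at day 19, in Plau (−0.020 to 0.12), Plat (−0.19 to 0.27) and Serpinb2 (−0.83 to 0.67) for injected wounds against WT, in Timp3 with vehicle (−0.77 to 0.12) and for cilengitide against vehicle (−0.084 to 0.76) and WT vehicle (−0.25 to 0.28), and in Serpine2 (−0.86 to 0.90), Serpinb2 (−2.03 to 0.49) and Timp1 (−1.07 to 0.61) between the days in Col5a1CKO wounds.

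Other sign changes were as follows. Within the upper set Plau was −0.19 and Serpinb2 −0.11 at day 14. For injected wounds against Col5a1CKO Plau was 0.089 with the set as covariate and 0.16 within the upper set, and Serpinb2 0.57 and 0.63. For injected wounds against WT, in the same order, Plau was −0.032 and −0.049 and Timp3 0.44 and 0.42. There Plau was also −0.016 in DESeq2, −0.017 with RLE size factors and −0.080 with all groups in 1 fit. Plat was −0.085, −0.085 and −0.13 in these 3, −0.019 without the filter, −0.025 with rows summed per symbol and −0.60 with the replicate block, under which Serpinb2 was −0.38. Scaled by library size only, Plau was −0.14 and Timp3 −0.34 at day 19, and the interaction was −0.34 for Plau and −0.46 for Serpinb2. Timp3 at day 19 was −0.029 with all groups in 1 fit. Between the days in WT wounds Plaur was −0.030 and Serpine2 −0.20 with all groups in 1 fit, and −0.023 and −0.20 with all libraries.

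Over all genes, library size scaling moved the median log2 fold change to 0.13 at day 14, −0.39 at day 19 and 0.48 between the days in WT wounds. DESeq2, which kept low genes, called 1572 higher and 920 lower at day 14 against 800 higher and 390 lower in edgeR, 708 higher and 782 lower against 3 higher and 0 lower at day 19, 9 higher and 10 lower against 0 higher and 0 lower and 947 higher and 1189 lower against 578 higher and 316 lower for injected wounds against Col5a1CKO and WT, 1544 higher and 798 lower against 799 higher and 532 lower for cilengitide against WT vehicle, 1018 higher and 682 lower against 0 higher and 0 lower between the days in Col5a1CKO wounds and 24 higher and 19 lower against 0 higher and 0 lower for the interaction. All members passed the filter on low counts, so depth kept none of them from being tested.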
